A study of Mus musculus with 2 samples.

Results

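The collagen genes were taken as every gene of the 2 deposited count matrices whose symbol reads Col, a number, a and a number, which gave 44 of the 32285 listed genes. The matrices hold 10x Genomics single-cell RNA libraries of liver, 1 from WT mice and 1 from their miR-33 HKO littermates. The HKO mice carry miR-33 alleles flanked by loxP sites together with Cre recombinase under the albumin promoter, which is active in hepatocytes, and whether the WT littermates carried loxP alleles without Cre is not given in the sources used here. All mice were 8 weeks old when they went onto CD-HFD, a high-fat diet without added choline that brings about steatohepatitis, and they ate it for 6 months. Each library came from 1 pool of 3 livers, in which hepatocytes and live-sorted non-parenchymal cells had been mixed 1:1. No chow-fed liver was analysed here. With 1 library per genotype there is no replicate check: genotype cannot be told apart from pool or preparation, and every interval below is a 95% interval that covers counting error only.

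Collagens are the main proteins of the extracellular matrix, built of chains that wind around each other into a triple helix. Fibrillar collagens such as types I, III and V form the fibres of scar tissue. Type IV forms the sheet of basement membranes, type VI a beaded network beside them, FACIT collagens such as types XII and XIV sit on the surface of fibrils, and types XV and XVIII are multiplexins, which carry sugar chains and lie near basement membranes. In injured liver the hepatic stellate cell, a vitamin A-storing cell beside the sinusoid, is known as the principal maker of fibrillar collagen. Endothelial cells make basement membrane collagen, and hepatocytes are known for making type XVIII, whose carboxy-terminal fragment is endostatin. By type, the 44 genes comprised 11 fibrillar, 9 FACIT, 6 basement membrane, 6 beaded filament, 4 transmembrane, 3 short-chain and 2 multiplexin genes, the anchoring fibril gene Col7a1, and 2 others.

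The 6 type IV genes lie as 3 head-to-head pairs, and the best-measured of them, Col4a1 and Col4a2, encode the chains that join in a single type IV molecule. In the GENCODE M21 annotation of GRCm38 (mm10) their start sites on chromosome 8 are 21 bases apart on opposite strands, so that the RefSeq promoter windows of both genes, 250 bases before to 50 after each start in GRCm38.p6, share 78 bases. The windows are shown because the levels of both genes are compared below. Capitals mark the 78 shared bases, chr8:11312777-11312854, which each line gives 5′ to 3′ on its own gene's strand.
Col4a1, chr8:11312777-11313076, minus strand: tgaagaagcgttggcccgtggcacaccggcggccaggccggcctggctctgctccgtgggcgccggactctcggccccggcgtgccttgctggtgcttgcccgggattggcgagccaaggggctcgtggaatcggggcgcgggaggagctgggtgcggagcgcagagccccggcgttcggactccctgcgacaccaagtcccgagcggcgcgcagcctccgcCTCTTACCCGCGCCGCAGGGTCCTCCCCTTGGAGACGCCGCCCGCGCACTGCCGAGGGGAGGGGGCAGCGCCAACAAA
Col4a2, chr8:11312555-11312854, plus strand: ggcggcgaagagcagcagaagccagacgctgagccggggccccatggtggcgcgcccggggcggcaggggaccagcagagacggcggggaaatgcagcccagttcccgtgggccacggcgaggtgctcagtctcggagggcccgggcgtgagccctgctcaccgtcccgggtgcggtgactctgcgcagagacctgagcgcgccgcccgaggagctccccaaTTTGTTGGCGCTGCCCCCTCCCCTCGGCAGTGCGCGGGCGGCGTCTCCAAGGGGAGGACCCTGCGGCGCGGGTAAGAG
The G and C content was 74% in the Col4a1 window and 73.7% in the Col4a2 window. Searched on both strands, GGGCGG occurred 1 time in the Col4a1 window and 3 times in the Col4a2 window, CCAAT occurred 1 time in each, and TATAAA occurred in neither. Over the 32851 RefSeq promoter windows of the same length, 35.7% held GGGCGG, 37.4% held CCAAT and 13.6% held TATAAA. The start sites of Col4a3 and Col4a4 are 72 bases apart on chromosome 1, and those of Col4a5 and Col4a6 are 1309 bases apart on chromosome X.

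The WT matrix holds 30078 barcodes and 130451427 UMIs (counted RNA molecules) and the HKO matrix 20000 barcodes and 52563185 UMIs, with median depths of 2658 and 1130 UMIs per barcode. Barcodes were clustered without the collagen genes and named from fixed marker lists that hold none of them, so that no class was defined by collagen. Most barcodes carried hepatocyte RNA at low depth: 20252 in WT and 10404 in HKO fell below the depth set for hepatocytes (5141 UMIs in WT, 1626 in HKO) and are called barcodes of free RNA depth. That left 1923 WT and 3746 HKO hepatocyte-like, 75 and 154 endothelial-like, 9 and 31 stellate-like, and 7 and 24 cholangiocyte-like barcodes. A further 6 WT and 37 HKO barcodes carried stellate and macrophage markers together, and 8 and 32 carried stellate and endothelial markers together. Both mixed classes are given by those marker names, since a barcode that holds a pair of cells was not told apart from a cell with both programmes. Barcode sequences of the WT library were not analysed here, and so barcodes shared by the libraries were not counted.

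The stellate label was checked against its 14 markers. In stellate-like barcodes 13 of 14 were detected in WT, where Des was at 0, and 14 of 14 in HKO, with summed levels of 23543 and 22539 CPM, the UMIs of a gene or list per 1000000 UMIs of the class. Hepatocyte markers were also present in these barcodes, at 33551 CPM in WT and 22722 CPM in HKO, against 75918 and 61664 CPM in hepatocyte-like barcodes. Endothelial markers stood at 487 CPM in WT and 1529 CPM in HKO in stellate-like barcodes and macrophage markers at 209 and 692 CPM, and the part of these lists in the stellate-like ratios below was not tested. Of the 11 markers of myofibroblasts and portal fibroblasts 7 were detected in each library (869 CPM in WT, 472 CPM in HKO), with Acta2, the smooth muscle actin of activated stellate cells, at 0 in WT. The class joined 2 clusters. The first had 14 stellate markers detected in at least 10% of its barcodes at 2-fold or more above the rest, with 3 myofibroblast and portal fibroblast, 0 hepatocyte and 0 mesothelial markers. The second, which held 5 of the 9 WT barcodes, had 7 stellate markers by the same measure, beside 3 hepatocyte, 2 mesothelial and likewise 3 myofibroblast and portal fibroblast markers, and 0 of the 14 stellate markers were among its top 10 genes by fold. Barcodes with stellate and macrophage markers held all 14 markers of each list in both libraries, and their macrophage markers summed to 12701 CPM in WT and 11867 CPM in HKO. Endothelial markers summed to 1511 CPM in WT and 5736 CPM in HKO in the same barcodes, and hepatocyte markers to 9878 and 4066 CPM.

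All 44 collagen genes had at least 1 UMI in the WT matrix and 42 in the HKO matrix, where Col6a4 (2 UMIs in WT) and Col2a1 (1 UMI in WT) were at 0. Collagen UMIs numbered 51638 in WT and 20292 in HKO, or 396 and 386 CPM of all UMIs. Of these, 83.4% in WT and 67.5% in HKO came from Col18a1 alone. Over the 6 classes described here, 28 genes reached 10 UMIs in at least 1 class, 14 had fewer in every class, and 2 had none. The 16 genes that reached 10 UMIs in no class were Col2a1, Col6a4, Col6a5, Col7a1, Col8a2, Col9a1, Col9a2, Col9a3, Col10a1, Col11a1, Col11a2, Col17a1, Col19a1, Col22a1, Col26a1 and Col28a1, among them the cartilage genes of types II, IX, X and XI.

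Per UMI, collagen was highest in the stellate-like classes. All members summed to 4796 CPM (4246 to 5396) in WT stellate-like barcodes and to 4077 CPM (3739 to 4438) in HKO. Barcodes with stellate and endothelial markers stood at 3817 CPM (3534 to 4118) in WT and 3411 CPM (3221 to 3610) in HKO. Those with stellate and macrophage markers stood at 4279 CPM (3902 to 4682) in WT and 1848 CPM (1741 to 1961) in HKO. The stellate-like sum was 6.28 times (5.37 to 7.33) that of endothelial-like barcodes in WT and 4.86 times (4.28 to 5.51) in HKO.

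Endothelial-like barcodes summed to 763 CPM (691 to 841) in WT and 839 CPM (764 to 919.8) in HKO, and hepatocyte-like barcodes to 489.8 CPM (484 to 496) and 390.1 CPM (383 to 398). These compare with 325 and 322 CPM in barcodes of free RNA depth, and with 168 and 124 CPM in T and NK-like barcodes, lymphocytes that are not known as collagen makers. Hepatocyte-like barcodes came to less than endothelial-like ones per UMI but held most of the collagen UMIs of the 6 classes, 24097 in WT and 10337 in HKO.

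**Figure D1:**
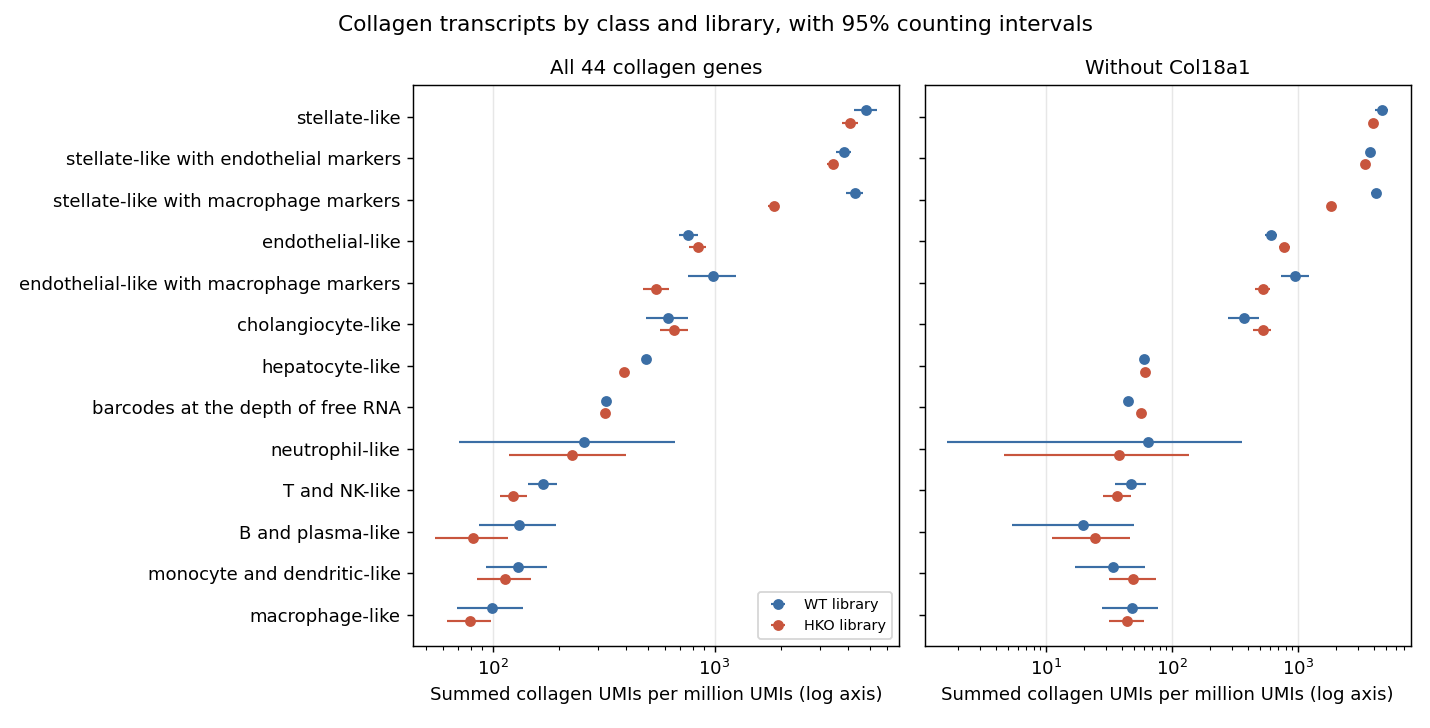
Summed collagen level (CPM, log axis) of each class in the WT and HKO libraries, with bars for the 95% counting interval, for all 44 genes and without Col18a1. The stellate-like classes lie highest, between 1848 and 4796 CPM, and leaving out Col18a1 takes hepatocyte-like barcodes from 489.8 to 59.8 CPM in WT and from 390.1 to 61.7 CPM in HKO.

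Without Col18a1 the classes lay further apart. Stellate-like barcodes then stood at 4639 CPM in WT and 3978 CPM in HKO, endothelial-like ones at 607 and 781 CPM, and hepatocyte-like ones at 59.8 and 61.7 CPM. The last 2 values compare with 45.1 and 57.0 CPM at free RNA depth and with 47.6 and 37.0 CPM in T and NK-like barcodes. For the genes of types I and III alone, stellate-like barcodes exceeded barcodes of free RNA depth 706-fold (501 to 990.4) in WT and 311-fold (211 to 471) in HKO. The second stellate-like cluster described above held 48 of the 64 stellate-like UMIs of these genes in WT and 33 of 132 in HKO. These folds therefore rest on a different mix of the clusters in each library.

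Col14a1, a FACIT collagen of the fibril surface, was the leading collagen gene of stellate-like barcodes in both libraries. Its level was 1460 CPM (1164 to 1807) in WT and 1430 CPM (1233 to 1650) in HKO, for a ratio of HKO over WT of 0.980 (0.754 to 1.28). That ratio moved to 1.81 when the collagen genes were allowed into the clustering and to 2.11 without the third round of clustering. UMIs of it were found in 7 of 9 WT and in 23 of 31 HKO stellate-like barcodes, 77.8% and 74.2%, against 2 of 173 and 0 of 661 T and NK-like barcodes, of which 0 allows a share of barcodes with a UMI of up to 0.454%. The median depths were 5693 and 3090 UMIs in the former and 5897 and 2252 UMIs in the latter. After each barcode was thinned to 1000 UMIs, which left out 1 HKO stellate-like barcode, the stellate-like shares were 44.4% (13.7 to 78.8) in WT and 66.7% (47.2 to 82.7) in HKO.

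The order of CPM between genes is not an order per length, because CPM was not divided by gene or transcript length, and the Col14a1 gene spans 213 kb where Col1a1 spans 16.8 kb. Of the fibrillar genes, Col3a1, the type III chain of distensible fibres, stood at 486 CPM (323 to 703) in WT and 502 CPM (388 to 639) in HKO. Col1a2, 1 of the type I chains, stood at 539 CPM (366 to 765) in WT and 358 CPM (263 to 475) in HKO. Its partner Col1a1 had 5 UMIs in WT and 19 in HKO, or 86.9 CPM (28.2 to 203) and 145 CPM (87.0 to 226), so that its share of type I UMIs was 13.9% (4.67 to 29.5) and 28.8% (18.3 to 41.3). Col5a1, a type V chain that starts the assembly of type I fibrils, stood at 278 CPM (159 to 451) in WT and 251 CPM (173 to 353) in HKO. For each of these 4 genes the interval of the ratio between libraries held 1.

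Col4a1 of type IV was the second gene of these barcodes in WT and the third in HKO. It was at 573 CPM (395 to 805) in WT and 456 CPM (348 to 587) in HKO, with a ratio of 0.796 (0.512 to 1.26). Col4a2 was at 399.6 CPM (253 to 599.6) in WT and 190.2 CPM (123 to 281) in HKO, for a ratio of 0.476 (0.259 to 0.877), which became 1.04 when the collagen genes were allowed into the clustering. Of type VI, Col6a3 stood at 139 CPM in WT and 167 CPM in HKO. Col6a1, which encodes another chain of the same molecule, stood at 243 CPM (133 to 408) from 14 UMIs in WT and at 53.2 CPM (21.4 to 109.7) from 7 UMIs in HKO, for a ratio of 0.219 (0.0748 to 0.580). Col18a1 had 9 UMIs in WT and 13 in HKO in these barcodes.

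**Figure D2:**
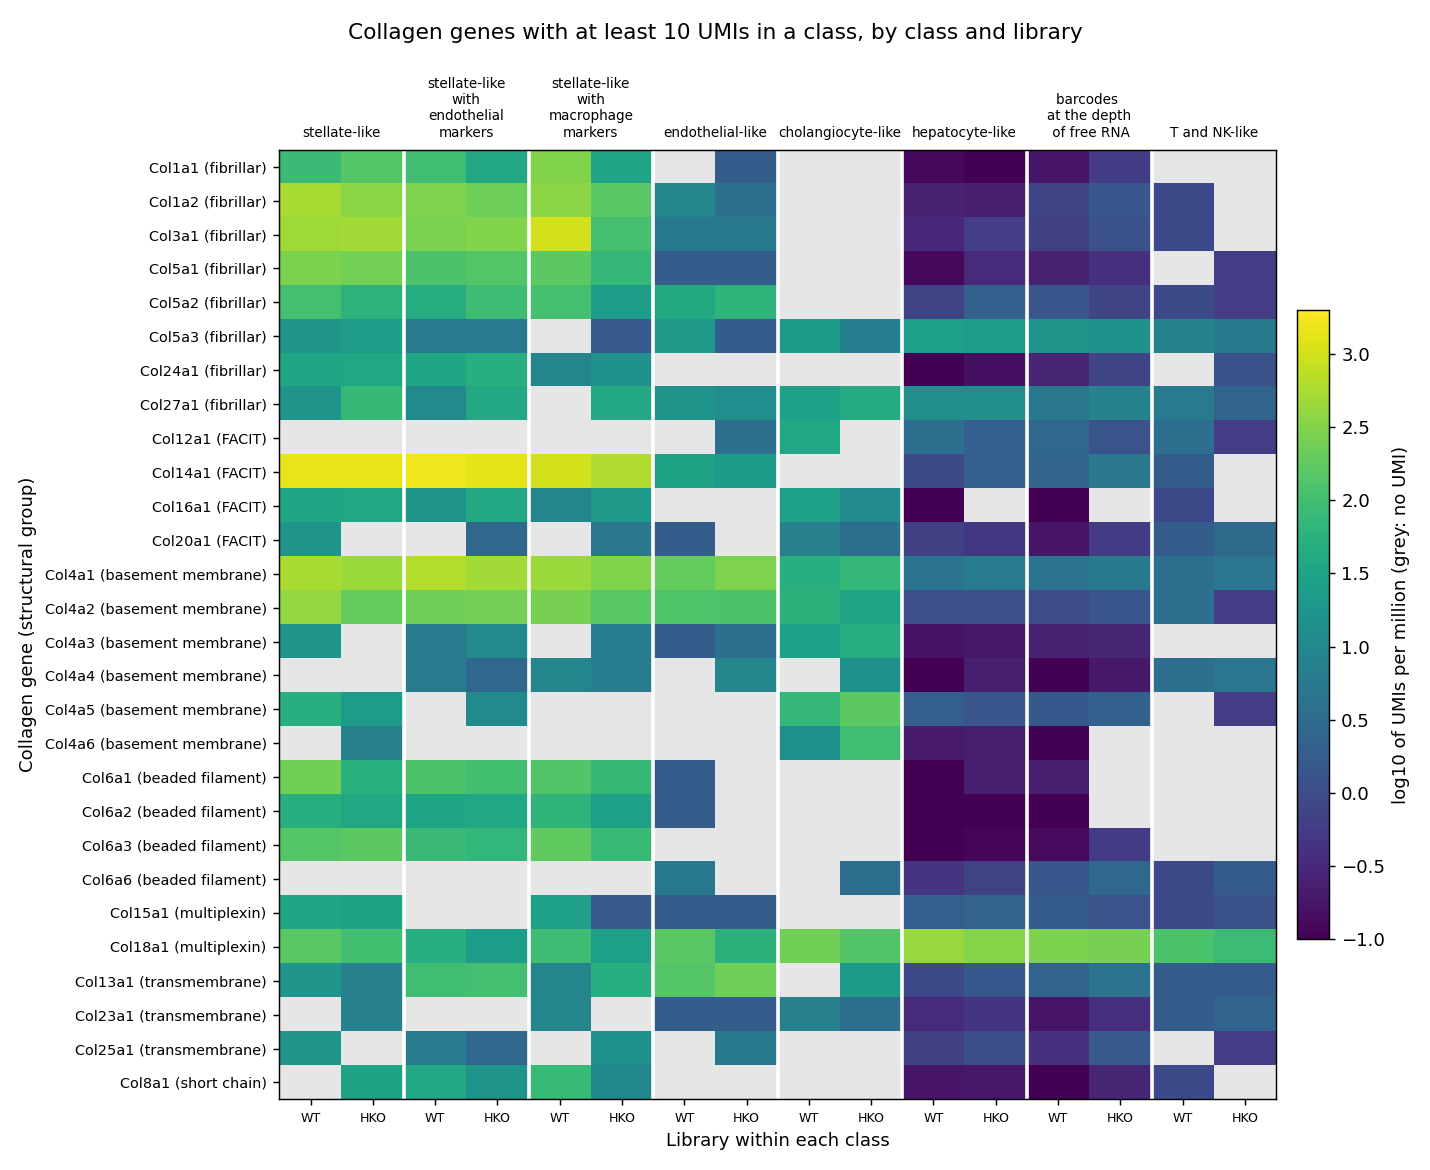
Heat map of the level (CPM, log10 colour scale, grey for no UMI) of the 28 collagen genes with at least 10 UMIs in a class, by class and library, with genes grouped by structural type. Col14a1, Col3a1, Col1a2 and Col4a1 each reach their highest level in a stellate class. Within endothelial-like barcodes Col4a1 is the highest gene. Within hepatocyte-like barcodes it is Col18a1, at 430.0 CPM in WT and 328 CPM in HKO.

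Summed over all members, stellate-like collagen in HKO was 0.850 times that in WT (0.734 to 0.987). The barcodes overlapped widely: single WT barcodes ranged from 691 to 8216 CPM with a median of 4836, and single HKO barcodes from 488 to 15190 CPM with a median of 3339. The direction of this ratio was not stable, since it was 1.10 with no barcode left out as a doublet, 1.24 with a minimum of 1000 UMIs, 1.59 with collagen genes in the clustering and 1.63 without the third round of clustering. Membership of the class moved with these settings, from 9 WT and 31 HKO barcodes to 6 and 25, 4 and 17, 9 and 34, and 49 and 80 in turn.

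The stellate-like barcodes fell into 2 clusters. The first, with 4 WT and 19 HKO barcodes, was led by Fendrr, Carmn and Gpc6, and summed to 4921 CPM (4196 to 5734) in WT and 5935 CPM (5400 to 6510) in HKO. Its genes of types I and III stood at 480.1 CPM (274 to 779.6) in WT and 1306 CPM (1061 to 1590) in HKO. The second, with 5 WT and 12 HKO barcodes, was led by Mgp, an inhibitor of calcification, with Igfbp6 and Aebp1. It summed to 4623 CPM (3807 to 5563) in WT and 1546 CPM (1236 to 1909) in HKO, and its genes of types I and III to 1981 CPM (1461 to 2627) and 593 CPM (408 to 833). In the second cluster 1 WT barcode of 7111 UMIs held 33 of the 48 UMIs of types I and III and 1 HKO barcode of 11331 UMIs held 29 of 33. Without these the level was 876 CPM (491 to 1446) in WT and 90.3 CPM (24.6 to 231) in HKO, while without the corresponding barcode of each library the first cluster stood at 323 CPM (118 to 702) and 879.5 CPM (673 to 1130). These values rest on 4 and 5 WT barcodes, and the difference between the clusters was not tested.

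**Figure D3:**
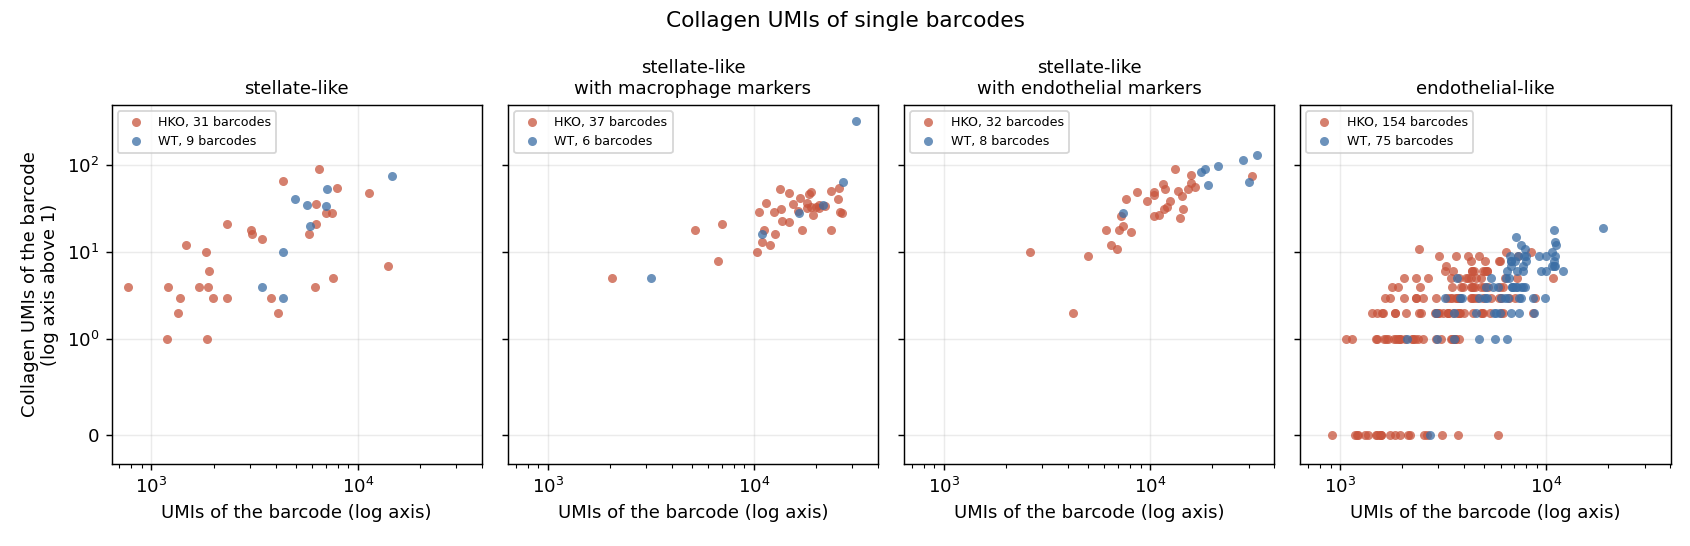
Collagen UMIs of single barcodes (log axis above 1) against the UMIs of the barcode (log axis) in the 3 stellate classes and in endothelial-like barcodes, 1 point per barcode, WT in blue and HKO in red. WT and HKO points overlap in each class, and 1 WT barcode with stellate and macrophage markers stands apart at 324 collagen UMIs.

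In barcodes with stellate and macrophage markers the collagen sum in HKO was 0.432 times that in WT (0.387 to 0.482), and 1 WT barcode decided this value. That barcode, of 31282 UMIs, held 324 of the 473 collagen UMIs of the 6 WT barcodes, among them 99 of Col3a1, 47 of Col14a1, 34 of Col1a2 and 32 of Col1a1. It had UMIs of all 14 stellate markers (349 UMIs) and of 7 of 14 macrophage markers (165 UMIs), and 46 UMIs of 4 of 11 myofibroblast and portal fibroblast markers. Over the class that list stood at 669 CPM in WT and 240.3 CPM in HKO, and its part in the ratio was not tested. The other 5 WT barcodes stood at 1880 CPM, beside 1835 CPM in HKO without its highest barcode, a ratio of 0.976.

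Gene by gene, the low ratios of fibrillar collagen in this class also rested on that barcode. Col3a1 stood at 1004 CPM (826 to 1209) in WT and 109 CPM (84.3 to 139) in HKO, and Col1a1 at 308 CPM (213 to 429.8) and 31.9 CPM (19.2 to 49.9), ratios of 0.109 (0.0788 to 0.149) and 0.104 (0.0559 to 0.187). Without the barcode of each library with the most collagen UMIs the Col3a1 ratio was 0.719 and the Col1a1 ratio 1.18, while Col1a2 went from 0.457 to 2.51. Col14a1 was again the leading gene in HKO, at 605 CPM (544 to 671), with 995 CPM (818 to 1199) in WT. Col4a1 stood at 443 CPM (328 to 586) in WT and 307 CPM (265 to 355) in HKO, and Col4a2 at 262 and 151 CPM. Col5a2, Col6a3, Col8a1 and Col5a1 had ratios of 0.232, 0.436, 0.124 and 0.444. Col27a1, a fibrillar collagen, had 0 UMIs in WT and 23 in HKO (38.6 CPM).

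Barcodes with stellate and endothelial markers also had Col14a1 as the highest gene. It stood at 1595 CPM (1414 to 1794) in WT and 1329 CPM (1211 to 1455) in HKO, for a ratio of 0.833 (0.717 to 0.969) that became 0.450 when each barcode was thinned to 1000 UMIs, and was detected in 8 of 8 and 31 of 32 barcodes. Col4a1 followed with 644 CPM (531 to 774) and 507 CPM (436 to 587). Col3a1 stood at 273 and 300.3 CPM, and Col1a2 at 291 and 224 CPM. Col1a1 was lower in HKO, with 17 UMIs or 96.9 CPM in WT and 14 UMIs or 39.7 CPM in HKO, for a ratio of 0.410 (0.187 to 0.883). Markers of myofibroblasts and portal fibroblasts stood at 758 CPM in WT and 363 CPM in HKO in the same barcodes, hepatocyte markers at 13902 and 5358 CPM and endothelial markers at 7515 and 8480 CPM, and their part in this ratio was not tested. The summed ratio was 0.894 (0.812 to 0.984), and the highest barcode held 131 of 670 collagen UMIs in WT and 90 of 1204 in HKO.

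Endothelial-like barcodes had a different set, with Col4a1 highest in both libraries. Col13a1 came next in HKO and, with Col18a1 set aside, in WT. Col4a1 stood at 193 CPM (158 to 234) in WT and 289 CPM (246 to 338) in HKO, for a ratio of 1.50 (1.16 to 1.93). Col13a1, a transmembrane collagen of cell adhesion sites, stood at 143 CPM (113 to 179) and 221 CPM (184 to 264), a ratio of 1.55 (1.15 to 2.09). Col4a2, by contrast, stood at 128 CPM in both, with a ratio of 0.999 (0.706 to 1.41). Both Col4a1 and Col13a1 were therefore higher in the HKO library beyond counting error, and the Col4a1 share of Col4a1 and Col4a2 UMIs was 60.1% (52.4 to 67.5) in WT and 69.3% (62.9 to 75.2) in HKO. Over 9 alternative settings the Col4a1 ratio ranged from 1.21 to 1.55 and the Col13a1 ratio from 1.24 to 1.86. The summed markers of endothelial cells moved alongside, at 10597 CPM in WT and 14386 CPM in HKO, while hepatocyte markers stood at 29540 and 16226 CPM, and their part in these ratios was not tested.

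Col4a1 was detected in 64% (52.1 to 74.8) of WT and 56.5% (48.3 to 64.5) of HKO endothelial-like barcodes, at median depths of 6930 and 3450 UMIs, against 1.16% and 1.21% of T and NK-like ones. Thinned to 1000 UMIs, which left out 1 HKO barcode, the shares were 17.3% (9.57 to 27.8) and 20.3% (14.2 to 27.5). Genes of types I and III were found in 4 WT and 4 HKO endothelial-like barcodes only. Col5a2, a type V chain, stood at 40.9 CPM (25.6 to 61.9) in WT and 62.2 CPM (43.1 to 86.9) in HKO. Col5a3, another type V chain, had 11 UMIs in WT and 1 in HKO, for a ratio of 0.0895 (0.00208 to 0.616). Hepatocyte-like barcodes and those of free RNA depth also held Col5a3, as given below. Hepatocyte markers stood at 29540 CPM in WT and 16226 CPM in HKO in endothelial-like barcodes, and their part in the Col5a3 ratio was not tested.

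Col18a1 behaved otherwise in endothelial-like barcodes, at 156 CPM (124 to 193) in WT and 58.5 CPM (40.0 to 82.6) in HKO, for a ratio of 0.375 (0.241 to 0.570). T and NK-like barcodes held 120 CPM of Col18a1 in WT and 87.2 CPM in HKO, and the share of barcodes with it after thinning was 14.7% and 7.19% in endothelial-like ones beside 10.5% and 8.64% in T and NK-like ones. In each library the 95% intervals of these thinned shares overlapped, while the shares before thinning were 56% and 17.5% in endothelial-like beside 50.3% and 19.5% in T and NK-like barcodes. Free RNA scaled by Alb, the albumin gene, would give 58.9 of the 84 Col18a1 UMIs of endothelial-like barcodes in WT and 34.9 beside the 32 observed in HKO. Without it, the endothelial-like sum in HKO was 1.29 times (1.11 to 1.49) that in WT, where the sum with it had a ratio of 1.10 (0.960 to 1.26), which became 0.961 once free RNA scaled by Alb was subtracted.

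In cholangiocyte-like barcodes, of bile duct cells, Col18a1 was the highest collagen gene in WT, at 242 CPM (167 to 339.9), and stood at 135 CPM (94.8 to 186) in HKO, where Col4a5 was above it. After thinning to 1000 UMIs the share of barcodes with Col18a1 was 42.9% (9.90 to 81.6) in WT and 4.17% (0.105 to 21.1) in HKO, beside 10.5% and 8.64% in T and NK-like barcodes, and 1 WT barcode held 32 of the 84 collagen UMIs of the class. The chains of the other type IV molecules were found here too. Col4a5 stood at 73.4 CPM (35.2 to 135) in WT and 164 CPM (119 to 219) in HKO, and Col4a6 at 14.7 CPM (1.78 to 53.0) from 2 UMIs and 94.6 CPM (61.8 to 139) from 26 UMIs. The ratios were 2.23 (1.11 to 4.97) and 6.45 (1.61 to 56.1), on 7 WT and 24 HKO barcodes. Cholangiocyte markers summed to 18507 CPM in WT and 15405 CPM in HKO in this class. Endothelial markers summed to 440 and 1048 CPM there, and the part of both lists in these ratios was not tested. Col4a3, of the same group of chains, had 4 UMIs in WT and 13 in HKO. Genes of types I and III were at 0 in both libraries. Col4a6 had at most 1 UMI over both libraries in each of the endothelial-like and the 3 stellate classes.

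In hepatocyte-like barcodes all but 3 of the 44 genes had a UMI, and Col18a1 made up 87.8% of collagen UMIs in WT and 84.2% in HKO. Its level was 430.0 CPM (424 to 436) in WT and 328 CPM (322 to 335) in HKO, for a ratio of 0.764 (0.745 to 0.783). The gene model overlaps that of Slc19a1 on the opposite strand, and whether the counting used strand is not given in the sources used here. At free RNA depth it stood at 280.2 CPM in WT and 265 CPM in HKO, for a ratio of 0.945 (0.907 to 0.985). The share of hepatocyte-like barcodes with a Col18a1 UMI was 96.1% in WT and 65.9% in HKO at median depths of 20310 and 4222 UMIs, and 32.6% (30.5 to 34.8) and 26.3% (24.9 to 27.8) after thinning to 1000 UMIs. T and NK-like barcodes gave 50.3% and 19.5% before thinning and 10.5% and 8.64% after.

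The libraries differed in depth, so that Col18a1 was also compared within ranges of depth. In barcodes of 5000 to 10000 UMIs it stood at 369 CPM (348 to 391) in WT and 350.3 CPM (335 to 366) in HKO, for a ratio of 0.950 (0.883 to 1.02). In barcodes of 10000 to 20000 UMIs it stood at 491 CPM (475 to 507) in WT and 349 CPM (337 to 361) in HKO, and in those of 20000 to 40000 UMIs at 449 CPM (439 to 459) and 311 CPM (297 to 327), ratios of 0.710 and 0.694. The lower level in HKO was therefore seen above 10000 UMIs, and not beyond counting error from 5000 to 10000. Over the whole class the summed hepatocyte markers were also lower in HKO, at 75918 CPM in WT and 61664 CPM in HKO, as was Alb, at 36357 and 27448 CPM, and their part in the Col18a1 ratio was not tested. HKO barcodes of 2000 to 5000 UMIs stood at 288 CPM (273 to 305), and WT barcodes of that depth lay under the WT minimum for hepatocytes and were not in the class.

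**Figure D4:**
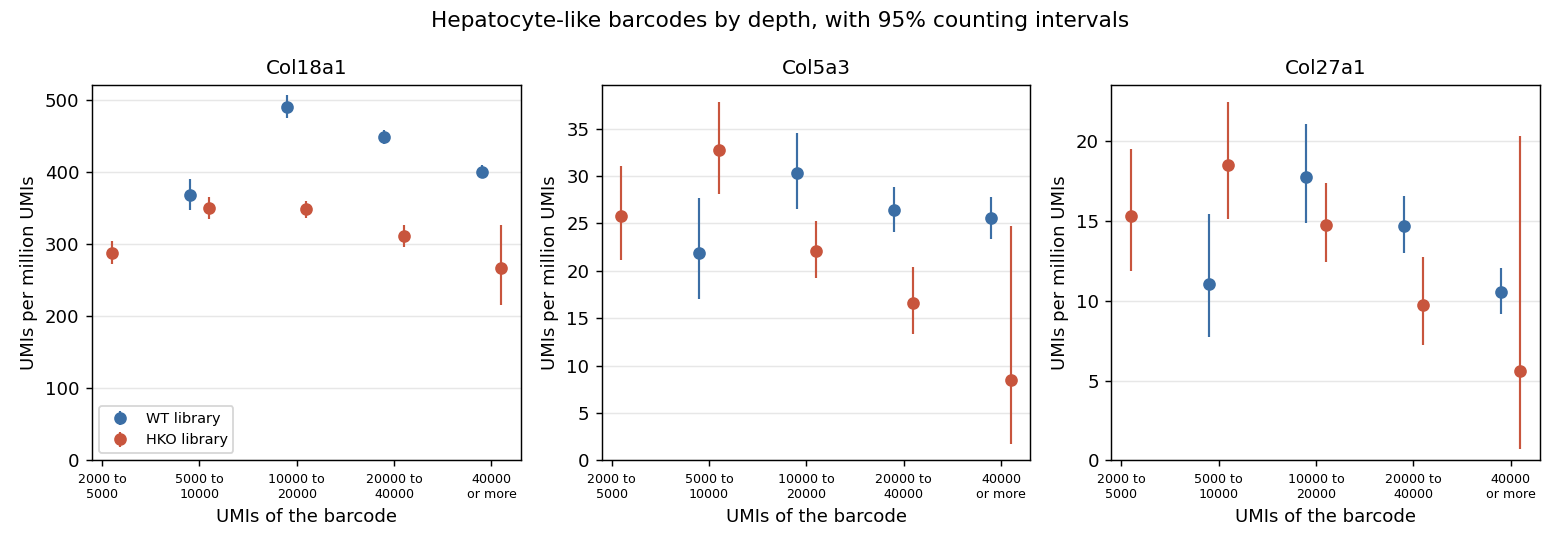
Level (CPM, linear axis from 0) of Col18a1, Col5a3 and Col27a1 in hepatocyte-like barcodes of the WT and HKO libraries by depth of the barcode (UMIs), with 95% counting intervals. For Col18a1 the libraries overlap from 5000 to 10000 UMIs, at 369 and 350.3 CPM, and lie apart from 10000 to 20000 UMIs, at 491 and 349 CPM.

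After Col18a1 came 2 fibrillar genes. Col5a3 stood at 26.3 CPM (24.9 to 27.8) in WT and 23.2 CPM (21.4 to 25.2) in HKO, and Col27a1 at 13.2 CPM (12.2 to 14.2) and 14.1 CPM (12.7 to 15.6). At free RNA depth these genes stood at 16.5 and 14.8 CPM and at 5.19 and 7.91 CPM. Their ratios depended on depth: for Col5a3 1.50, 0.729 and 0.630, and for Col27a1 1.67, 0.830 and 0.662, from 5000 to 10000, 10000 to 20000 and 20000 to 40000 UMIs. Both genes together made up most of the fibrillar level of hepatocyte-like barcodes, 41.3 CPM in WT and 41.2 CPM in HKO.

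The other genes of hepatocyte-like barcodes were below 10 CPM. Col12a1, a FACIT collagen, stood at 3.70 CPM (3.18 to 4.28) in WT and 1.92 CPM (1.43 to 2.53) in HKO, for a ratio of 0.520 (0.374 to 0.713) that became 1.03 when each barcode was thinned to 1000 UMIs. At free RNA depth it stood at 2.71 and 1.27 CPM, with a ratio of 0.469. Col5a2 had 37 UMIs in WT and 58 in HKO, for a ratio of 2.91 (1.89 to 4.52), but 1 HKO barcode held 27 of the 58 and without the barcode of each library with the most Col5a2 UMIs the ratio was 1.74. Col14a1 stood at 0.935 and 1.96 CPM, a ratio of 2.10 (1.38 to 3.19), with 2.33 and 4.98 CPM and a ratio of 2.14 (1.51 to 2.99) at free RNA depth. Col1a1, Col1a2 and Col3a1 together lay below their level at free RNA depth, 0.426 times (0.275 to 0.645) in WT and 0.269 times (0.151 to 0.473) in HKO.

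Differences of at least 2-fold were counted in each class among genes with enough counts, at least 10 UMIs over both libraries or, in hepatocyte-like barcodes, a mean of at least 10 CPM. In hepatocyte-like barcodes 3 collagen genes qualified and none was 2-fold higher or lower, where 0.436% of all 7102 genes were higher in HKO and 0.915% lower. In endothelial-like barcodes 0 of 8 collagen genes were 2-fold higher and 2 lower, Col18a1 and Col5a3, against 5.79% and 8.43% of all 9388 genes. In stellate-like barcodes 1 of 12 was higher, Col27a1 with 1 UMI in WT and 10 in HKO, and 2 were lower, Col4a2 and Col6a1, against 13.4% and 10.8% of 3743 genes. Without the highest-collagen barcode of each library the stellate-like counts were 0 higher and 5 lower. The share over all genes was not computed for that setting, so that these counts have none beside them.

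In barcodes with stellate and macrophage markers 2 of 17 were 2-fold higher, Col13a1 and Col16a1, and 9 lower, against 14.6% and 10.5% of 8614 genes. Col13a1, a gene of endothelial-like barcodes, had 1 UMI in WT and 29 in HKO here, where endothelial markers stood at 1511 and 5736 CPM, and their part in these counts was not tested. The 9 were Col1a1, Col1a2, Col3a1, Col5a1, Col5a2, Col6a2, Col6a3, Col8a1 and Col18a1. Without the highest barcode of each library 0 were 2-fold lower, again with no share over all genes computed for that setting. In barcodes with stellate and endothelial markers 3 of 17 were higher, Col5a2, Col16a1 and Col27a1, and 3 lower, Col1a1, Col8a1 and Col18a1, against 9.27% and 10.9% of 7531 genes. Of these, Col18a1 had 9 UMIs in each library. Free RNA scaled by Alb would give 10.5 collagen UMIs in WT and 8.52 in HKO in this class. Without Col18a1 it would give 1.46 and 1.51, and the part of free RNA in this count was not tested. The median log2 ratio of the collagen genes beside that of all genes was -0.18 and -0.02 in hepatocyte-like, -0.19 and 0.04 in endothelial-like, -0.24 and -0.02 in stellate-like, -1.13 and 0.03 in stellate and macrophage, and 0.07 and 0.02 in stellate and endothelial barcodes.

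**Figure D5:**
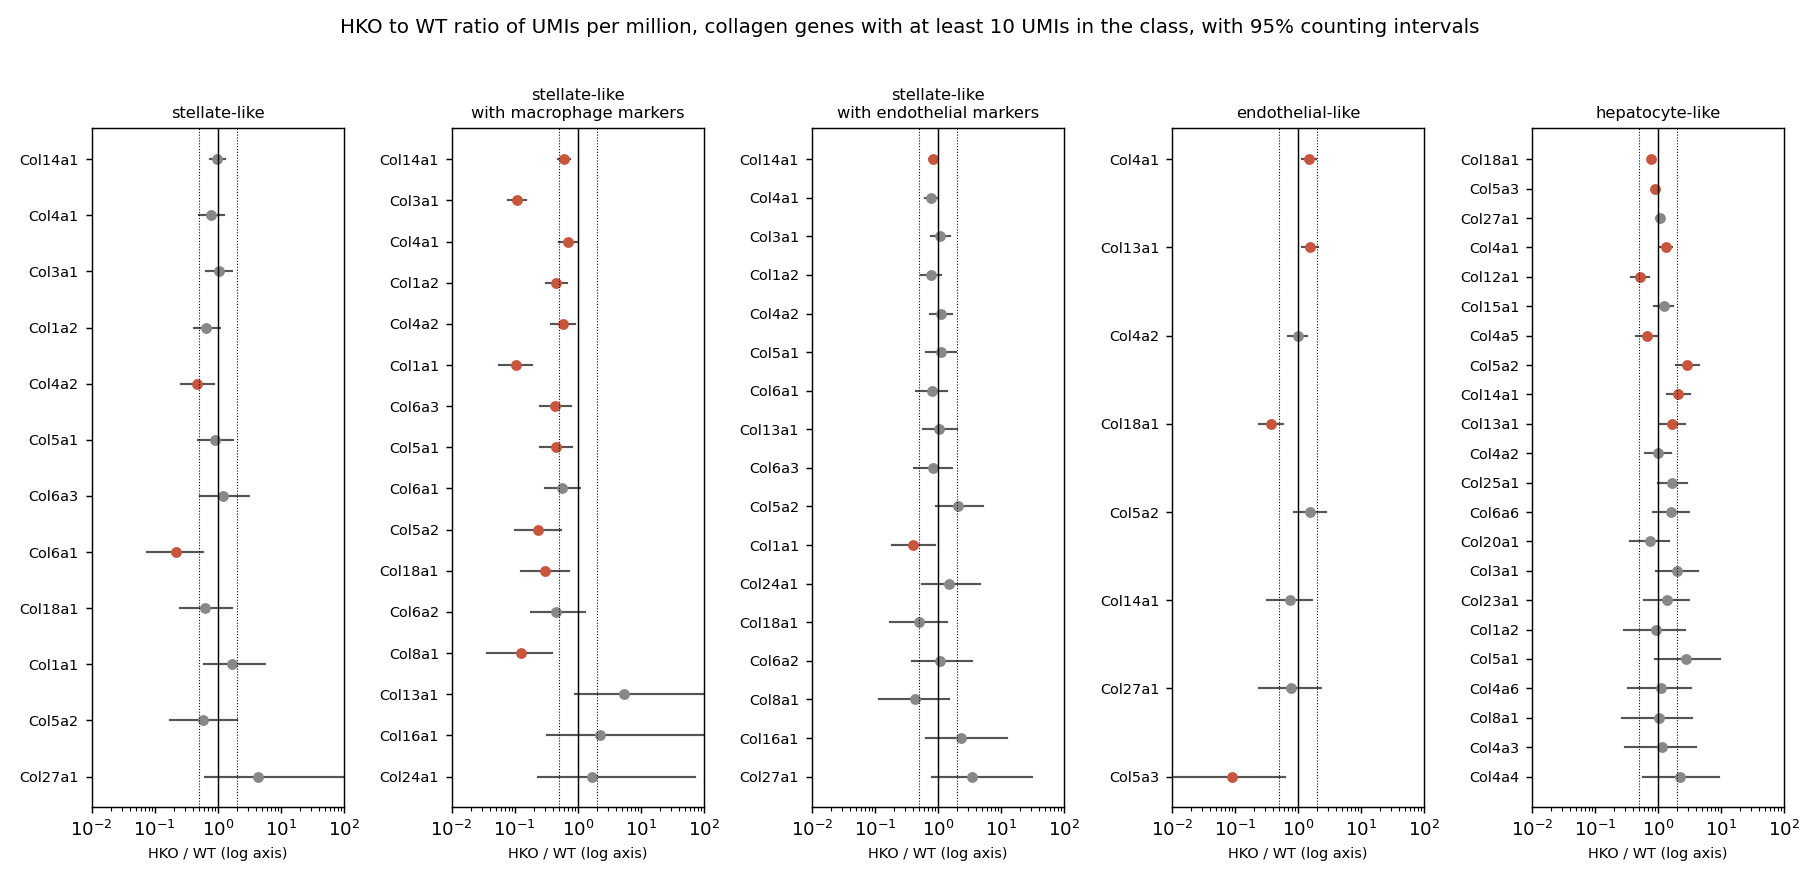
Ratio of HKO over WT (log axis) of each collagen gene with at least 10 UMIs in the class and a UMI in WT, with the 95% counting interval. Col27a1 in barcodes with stellate and macrophage markers had no UMI in WT and is not drawn. Red points have an interval that leaves out 1, and dotted lines mark 2-fold. In endothelial-like barcodes Col4a1 and Col13a1 lie at 1.50 and 1.55 and Col18a1 at 0.375; the low values of Col3a1 and Col1a1 in barcodes with stellate and macrophage markers, 0.109 and 0.104, rest on 1 WT barcode.

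The genes that make, secrete, cross-link, cut and bind collagen were followed in 7 lists of 79 genes. Of 18 genes that modify and fold the chains, 8 had enough counts in stellate-like barcodes, with 0 at least 2-fold higher and 3 lower in HKO (P4ha1, Plod1 and Ppib). With stellate and macrophage markers 1 of 11 was higher and 2 lower, and with stellate and endothelial markers 0 of 12 were higher and 0 lower. In endothelial-like barcodes 1 of 11 was higher and 0 lower, and in hepatocyte-like ones 0 of 4 were higher and 0 lower. Of all genes with enough counts, as above, 13.4% were higher and 10.8% lower in stellate-like barcodes, 5.79% and 8.43% in endothelial-like ones, and 0.436% and 0.915% in hepatocyte-like ones. With stellate and macrophage markers the shares were 14.6% and 10.5%, and with stellate and endothelial markers 9.27% and 10.9%. In stellate-like barcodes P4hb, a subunit of prolyl 4-hydroxylase, stood at 365 CPM (226 to 558) in WT and 335 CPM (243 to 449) in HKO. Serpinh1, the collagen chaperone of the endoplasmic reticulum, stood there at 208 CPM (108 to 364) and 183 CPM (117 to 272). Ppib, a prolyl isomerase of the folding complex, stood at 365 CPM (226 to 558) and 76.1 CPM (36.5 to 139.9), a ratio of 0.208 (0.0877 to 0.463). Its ratio was 0.402 in stellate and macrophage barcodes and 0.557 (0.533 to 0.583) in hepatocyte-like ones, so that the HKO library was lower in each of these 3 classes. In endothelial-like barcodes and in those with stellate and endothelial markers, 0 genes of the list were 2-fold lower. The part of single WT barcodes in the value of 0.402, and of depth in that of 0.557, was not tested.

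Of 13 genes of fibrogenic signals, 9 had enough counts in stellate-like barcodes (Smad7 at least 2-fold higher, and Ccn1, Ccn2 and Tagln lower), 7 in endothelial-like (0 higher, 1 lower) and 5 in hepatocyte-like ones (0 higher, 1 lower). With stellate and macrophage markers 10 had enough counts (2 higher, 4 lower, against 14.6% and 10.5% of all genes), and with stellate and endothelial markers 11 (1 higher, 3 lower, against 9.27% and 10.9%). The shares of all genes were 13.4% higher and 10.8% lower, 5.79% and 8.43%, and 0.436% and 0.915% in stellate-like, endothelial-like and hepatocyte-like barcodes. Ccn1, a matricellular target of growth signals, stood at 278 CPM in WT and 53.2 CPM in HKO in stellate-like barcodes, a ratio of 0.192 (0.0666 to 0.492), and at 102 and 46.0 CPM in hepatocyte-like ones, a ratio of 0.453 (0.425 to 0.482). Ccn2, the connective tissue growth factor, stood at 301 CPM (256 to 351) and 112 CPM (85.3 to 143) in endothelial-like barcodes, a ratio of 0.371 (0.271 to 0.501), and at 256 and 82.2 CPM in stellate and endothelial ones. Tgfbr2, a receptor chain for TGF-β, went the other way in the latter, at 79.8 and 176 CPM, a ratio of 2.20 (1.22 to 4.26).

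In endothelial-like barcodes the prolyl 3-hydroxylase P3h2, which is known to act on type IV chains, stood at 37.2 CPM (22.7 to 57.4) in WT and 80.5 CPM (58.5 to 108) in HKO, for a ratio of 2.17 (1.25 to 3.88), beside the Col4a1 ratio of 1.50. Sparc, which binds collagen outside the cell, stood at 353 CPM (305 to 407) and 477 CPM (421 to 539), and the collagen receptor chain Itga1 at 648 CPM (582 to 720.0) and 794 CPM (721 to 872). As for Col4a1, the summed endothelial markers stood at 10597 and 14386 CPM and hepatocyte markers at 29540 and 16226 CPM in these barcodes, and their part in the levels of P3h2, Sparc and Itga1 was not tested. Of the 6 cross-linking, 13 degradation and 8 receptor genes, 3, 4 and 2 had enough counts in endothelial-like barcodes, and 1 of them was past 2-fold, the cross-linking enzyme Loxl3 with 5 UMIs in WT and 11 in HKO, where 5.79% of all genes were higher and 8.43% lower. In stellate-like barcodes 1, 4 and 3 had enough counts, with 0 higher and 1 lower, the gelatinase Mmp2 with 7 UMIs in WT and 4 in HKO, against 13.4% and 10.8% of all genes. Of the 10 genes of secretion and propeptide cleavage, 5 had enough counts in stellate-like barcodes, 1 of them higher, the export factor Mia3 with 4 UMIs in WT and 19 in HKO, and 0 lower. Of the 11 other matrix genes 10 had enough counts there, with Tnc higher (1 UMI in WT, 15 in HKO) and Eln, the elastin gene, lower (10 and 5 UMIs).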

How the data were processed

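Single-cell suspensions of 1 WT and 1 miR-33 HKO pool of 3 livers were processed with a 10x Genomics 3′ kit. The deposited matrices hold raw UMI counts per gene and barcode, which the authors made with Cell Ranger (7.1.0 in the matrix header) on mm10. The submitters' processing notes also name R 3.0 and Seurat 3. Whether intronic reads were counted, and with which strand setting, is not given in the sources used here. Every column used belonged to a labelled sample, and 0 columns were set aside.

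Barcodes with at least 500 UMIs, at least 300 genes and at most 50% mitochondrial UMIs were kept (29620 WT, 18247 HKO). Scrublet in scanpy 1.11.5 marked 0 barcodes by its own threshold, so the 7019 WT (23.7%) and 2664 HKO (14.6%) barcodes with the highest scores were left out, 0.8% per 1000 barcodes. Both libraries were clustered together (2000 variable genes without collagens, 30 components, 15 neighbours, Leiden resolution 1) in 3 rounds, the third added after seeing the data. Clusters were named where at least 3 markers of a list were detected in at least 10% of barcodes and were at least 2-fold above the rest. The hepatocyte-like depth minimum was set at 2 times the commonest depth, which was 2570 UMIs in WT and 813 in HKO. The study's own cell annotation was not used here, so its names may differ.

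Collagen counts were summed per class and library and divided by the class's UMIs (CPM). Intervals are exact Poisson for levels, exact conditional for ratios and Clopper-Pearson for shares, at 95%, with a floor of 3 counts for a class at 0. Genes were named where they had at least 10 UMIs in a class and were among its 6 highest, or had a ratio of at least 2 or at most 0.5 with an interval that left out 1; other genes named with counts under that rule were chosen after their values were seen. No p-value was computed, because each genotype had 1 library. Ratio and interval steps were tested on simulated class totals that held counting error only, and thinning on simulated barcodes. Spread between barcodes of a class was not simulated. The members and gene lists were chosen with earlier results of these data known. Promoter windows from RefSeq matched 35 of the 44 genes. Python 3.11.15, scipy 1.17.1, numpy 2.4.6 and pandas 2.3.3 were used. Alternative clusterings, depths, doublet settings and sums were tried, with their effect given at the end. The miR-33 deletion was not checked on these counts, since the kit does not measure miR-33.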

Additional observations from a re-analysis of the deposited data

Results flagged for a closer look

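For 3 genes the ratio of HKO over WT lay on opposite sides of 1 in different classes, with both intervals leaving out 1. Col14a1 had a ratio of 2.10 in hepatocyte-like barcodes, beside 0.608 in barcodes with stellate and macrophage markers and 0.833 in those with stellate and endothelial markers. Its hepatocyte-like level, at 0.935 CPM in WT and 1.96 CPM in HKO, was below that at free RNA depth, where the ratio was 2.14. Col4a1 had ratios of 1.50 in endothelial-like and 1.33 in hepatocyte-like barcodes, beside 0.694 with stellate and macrophage markers, which became 1.13 without the highest barcode of each library. Col5a2 had ratios of 2.91 in hepatocyte-like barcodes and 0.232 with stellate and macrophage markers, and in the former 1 HKO barcode held 27 of 58 UMIs. The differences between classes were not tested, since each genotype had 1 library.

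Barcodes left out by the filters and as doublets also held collagen, above the limit that a count of 0 allows. They held 15.5% of deposited collagen UMIs in WT and 12.2% in HKO, but 5.33% and 2.37% of the UMIs of Col1a1, Col1a2 and Col3a1. Types I and III stood there at 1.17 CPM (0.788 to 1.67) in WT and 1.54 CPM (0.860 to 2.53) in HKO. A further 62 WT and 97 HKO barcodes passed the filters but were given no class name, and summed to 639 CPM (571 to 713) and 434 CPM (359 to 519) of collagen. Their fibrillar genes stood at 126 CPM (96.7 to 161) in WT and 62.5 CPM (36.4 to 100.1) in HKO.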

How the results depend on the processing

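No paired analysis was possible because each genotype had 1 library. The summed stellate-like ratio changed direction with doublets kept (1.10, HKO 5361 CPM), a minimum of 1000 UMIs (1.24, HKO 6092 CPM, with 4 WT and 17 HKO barcodes left), collagens in the clustering (1.59, WT 2584 CPM) and the clustering without the third round (1.63, at 1673 CPM in WT and 2727 CPM in HKO); with the last 2 the Col4a2 ratio was 1.04 and 1.10. Leaving out the highest barcode gave 3560 CPM in stellate-like HKO and, with stellate and macrophage markers, 1880 CPM in WT and ratios of 0.976 for the sum, 1.18 for Col1a1, 2.51 for Col1a2 and 1.13 for Col4a1; 5 stellate-like genes were then 2-fold lower and 0 higher, 0 were lower with macrophage and 1 with endothelial markers. Without the third round the macrophage-marker sum had a ratio of 0.753 (1596 and 1201 CPM), as a mean of barcodes 0.612 (WT 3186 CPM), and thinned to 1000 UMIs 0.799 (WT 2333 CPM). Thinning also gave 0.664 with endothelial markers (4750 and 3156 CPM), 481 CPM in WT hepatocyte-like barcodes and 1.03 for hepatocyte-like Col12a1.

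Subtracting free RNA scaled by Alb gave 8469 and 6270 CPM in stellate-like WT and HKO, 4790 CPM in WT with macrophage markers, 4604 and 3662 CPM with endothelial markers (ratio 0.795), and 1044 and 1004 CPM in endothelial-like barcodes. At Leiden resolution 2 HKO stellate-like barcodes stood at 4789 CPM and WT endothelial-like ones at 686 CPM. Hepatocyte-like sums were 496 and 376 CPM as means of barcodes (ratio 0.757), 405 and 371 CPM with no depth minimum (0.916), 400.2 CPM in HKO with at least 5000 UMIs in both libraries (0.817), and 523 and 416 CPM from 5000 to 20000 UMIs. Without Col18a1 hepatocyte-like sums were 59.8 and 61.7 CPM (1.03) and the endothelial-like ratio 1.29 (WT 607 CPM). With a floor of 1 mean CPM or 5 UMIs, 2 stellate-like and 2 hepatocyte-like genes were 2-fold higher. With 50 mean CPM or 30 UMIs, 0 were higher and 1 lower in stellate-like, 1 and 5 with macrophage markers, 1 and 1 with endothelial markers, and 1 lower in endothelial-like barcodes. Across the alternative settings of these counts 7 to 18 stellate-like, 5 to 11 endothelial-like and 1 to 11 hepatocyte-like genes qualified. With macrophage markers 10 to 19 qualified, and with endothelial markers 11 to 18. Shares over all genes were computed for the main setting only, so that none stand beside the counts of this section. The depth range, the sum without Col18a1 and the clustering in 2 rounds were chosen after seeing the data. Depth and the few WT stellate barcodes limit every stellate value; the causes of these shifts were not tested.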

Other observations

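Hepatocyte-like barcodes of at least 5000 UMIs were ordered by the share of pericentral markers (Cyp2e1, Cyp1a2, Oat, Glul and Slc1a2) in the UMIs of these and of periportal markers (Cyp2f2, Hal, Sds, Hsd17b13 and Gls2), and divided into 3 equal bins per library. Glul, the glutamine synthetase of pericentral hepatocytes and a part of the ordering, stood at 24.5, 84.4 and 416 CPM from the periportal to the pericentral bin in WT and at 7.49, 38.7 and 1150 CPM in HKO. Col18a1 stood at 456 CPM (446 to 466), 426 CPM (416 to 437) and 406 CPM (396 to 416) in WT, and at 357 CPM (344 to 371), 336 CPM (322 to 350.1) and 319 CPM (306 to 333) in HKO. It was thus highest in the periportal bin of both libraries, by a small margin, and lower in HKO in each of the 3 bins. Median depths of the bins differed, at 22998, 16370 and 21322 UMIs in WT and 12092, 9215 and 10276 UMIs in HKO, and their part was not tested.

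The Col4a1 share of Col4a1 and Col4a2 UMIs was 79.5% (74.2 to 84.1) in WT and 83.9% (77.8 to 88.8) in HKO hepatocyte-like barcodes, close to the 81.7% (76.6 to 86.0) and 80% (68.7 to 88.6) at free RNA depth. In endothelial-like barcodes it was 60.1% (52.4 to 67.5) and 69.3% (62.9 to 75.2). Barcodes with endothelial and macrophage markers, 2 in WT and 40 in HKO, summed to 984 CPM (763 to 1250) and 544 CPM (474 to 621) of collagen, of which 1 barcode held 54 of 67 UMIs in WT and 63 of 218 in HKO.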
